A study of Rattus norvegicus with 8 samples.

Results

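The cardiac myosin heavy chains alpha and beta, encoded by Myh6 and Myh7, were followed across rat hearts kept in normoxia or exposed to chronic hypoxia. The members are 2 of the 21549 gene rows deposited for each library, Myh6 being ENSRNOG00000025757 and Myh7 ENSRNOG00000016983, and both were found in every library. They are defined by gene ID and not by a threshold on any value, although earlier results of these data were known when they were chosen. Each group held 4 heart libraries from 3-month-old Sprague Dawley rats, an outbred strain, with 1 library taken per rat and no genetic change or drug named for either group. The normoxia libraries are titled Control in the labels. Which chamber of the heart was taken, how low the oxygen was and for how long are not stated in the labels.

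Myosin heavy chain is the motor of the thick filament, the part of the sarcomere that splits ATP and pulls on actin. The alpha chain is the faster motor and predominates in the adult rat ventricle and in the atria, while the beta chain is slower, uses less ATP per unit of force and predominates in the fetal ventricle. A move from alpha towards beta is a familiar feature of the loaded or hypothyroid rodent heart, and thyroid hormone is a known activator of Myh6. These statements are background and were not tested here.

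The genes are neighbours in the rat genome. In the RefSeq table of assembly GRCr8 they lie in tandem on the same strand, with a long non-coding RNA gene, LOC120096985, starting between them on the opposite strand and reaching into the span of Myh7. Each span also holds a microRNA gene on the strand of its host, Mir208a in Myh6 and Mir208b in Myh7. The mature 3p strands are printed because they are the small RNA products of the same 2 transcription units, with the seed (bases 2 to 8) in capitals, 5′ to 3′, from RefSeq GRCr8.
rno-miR-208a-3p: aUAAGACGagcaaaaagc
rno-miR-208b-3p: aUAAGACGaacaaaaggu
The seed is shared, and of 724 mature sequences in the table these 2 alone carry it. Counted from 1 at the 5′ end, miR-208b-3p differs from miR-208a-3p by G10A, A16G and C18U. Mature microRNAs were not measured in these libraries.

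Library totals ran from 26229304 to 32160710 counts. Both genes were among the most abundant in every heart, so the labelled tissue carried its main motor genes at high levels. By count, Myh6 ranked 9 in each of the 4 normoxia libraries and between 11 and 18 in hypoxia, and Myh7 ranked between 11 and 22 over all 8 libraries. Together they held between 1.42% and 1.64% of all counts in normoxia and between 1.05% and 1.28% in hypoxia. Markers of other cell types could not be read, because neither the files nor the RefSeq table pairs the Ensembl IDs with symbols.

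The alpha chain was lower in 3 of the 4 hypoxic hearts and at the normoxic level in the remaining one. On the length-scaled FPKM scale (counts divided by gene-model length and by the library total), the normoxia libraries 1 to 4 held Myh6 at 2001, 1656, 1499 and 1688. Hypoxia libraries 1 to 4 held it at 814, 917, 1559 and 822 FPKM. Hypoxia libraries 1, 2 and 4 lay far below every normoxic heart, whereas hypoxia library 3 lay inside the normoxic range, so the groups overlap. The group means were 1711 ± 210 FPKM for normoxia and 1028 ± 357 FPKM for hypoxia (SD, n = 4 each).

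On the FPKM scale the beta chain had nearly equal group means, and it varied within both groups. Normoxia libraries 1 to 4 held Myh7 at 704, 704, 1056 and 1049 FPKM. Hypoxia libraries 1 to 4 held it at 1022, 988, 580 and 938 FPKM. On this scale normoxia libraries 3 and 4 were thus as high as hypoxia libraries 1, 2 and 4. Under the scaling of the test below, those hypoxia libraries lay above normoxia libraries 3 and 4. The lowest value of all 8 was that of hypoxia library 3. The group means were 878 ± 201 and 882 ± 204 FPKM (SD, n = 4 each), a difference of 3.65 FPKM against a loss of Myh6 of −683 FPKM.

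**Figure D1:**
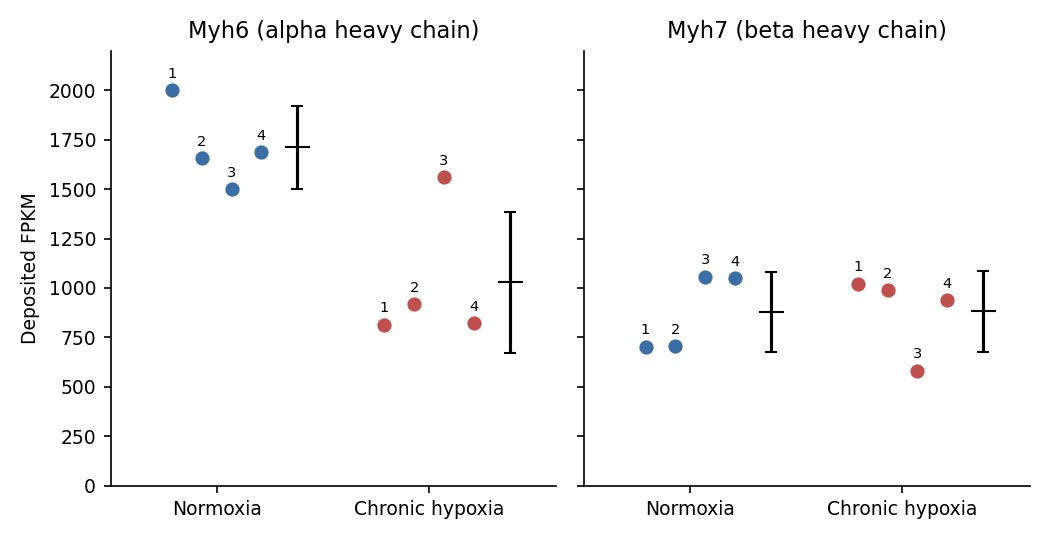
Deposited FPKM of Myh6 (left) and Myh7 (right) in each library, numbered as in the labels, with the group mean and SD as black bars (n = 4 each). Hypoxia libraries 1, 2 and 4 sit between 814 and 917 for Myh6, below all normoxic values, and hypoxia library 3 at 1559 sits among them.

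In the test over all genes, Myh6 fell in hypoxia and Myh7 did not pass. CPM, the count scaled relative to a TMM-corrected library size that allows for a shift in the makeup of the library, was 9706 ± 1185 for Myh6 in normoxia against 6535 ± 1998 under hypoxia (mean ± SD, n = 4 each). On the log2 scale the change was −0.57 ± 0.20 (SE), with a Benjamini-Hochberg adjusted p of 0.0475 in edgeR's quasi-likelihood test and a hypoxia to normoxia ratio of 0.673 with a 95% interval of 0.498 to 0.911. The adjusted p lies just inside the threshold of 0.05, and 15.3% of the 14214 tested genes were called lower and 17.7% higher in the same fit. Myh7 stood at 4909 ± 1202 CPM in normoxia and 5586 ± 1430 CPM in hypoxia, or 0.19 ± 0.23 (SE) on the log2 scale, which did not pass (edgeR adjusted p = 0.556). Its ratio of 1.14 has a 95% interval of 0.801 to 1.62, which covers no change, a fall of that lower size and a rise of that upper size. In a bulk sample, fewer cardiomyocytes and less of a transcript per cardiomyocyte cannot be told apart.

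**Figure D2:**
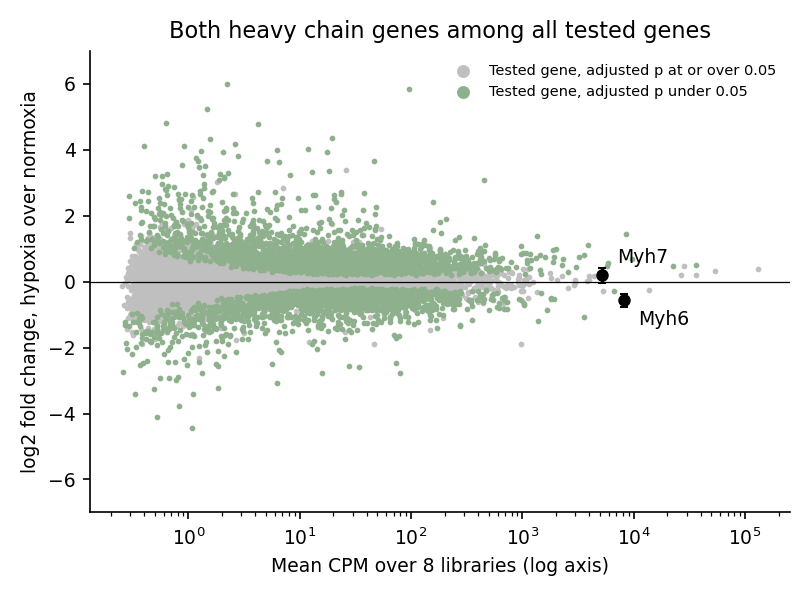
The log2 fold change of every tested gene against its mean CPM (log axis), with genes at an adjusted p under 0.05 in green and the others in grey, and Myh6 and Myh7 in black with their SE. Myh6 at −0.57 and Myh7 at 0.19 lie among the most abundant genes, on opposite sides of 0.

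The call on Myh6 depended on which libraries were in the fit. Hypoxia library 3 held the highest Myh6 of the hypoxic hearts, so leaving it out was bound to enlarge the fall and is not separate support. Without hypoxia library 3 the log2 fold change of Myh6 grew to −0.80 ± 0.13 (SE, edgeR adjusted p = 0.00211). Without hypoxia libraries 3 and 4 it was −0.81 ± 0.14 (SE, edgeR adjusted p = 0.00218). Without any 1 of the other 7, that is normoxia library 1, 2, 3 or 4 or hypoxia library 1, 2 or 4, it was between −0.63 and −0.47 and no longer passed (edgeR adjusted p from 0.0659 to 0.121). For Myh7, leaving out hypoxia library 3 gave 0.36 ± 0.18 (SE, edgeR adjusted p = 0.144), still short of the threshold. Leaving out hypoxia libraries 1 and 2 together turned Myh7 to −0.032 on the log2 scale.

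The size of both changes depended on whether the library totals were corrected. RLE and upper-quartile factors, other such corrections, gave Myh6 at −0.57 and −0.56 and Myh7 at 0.19 with each, close to the TMM fit. With library totals alone the median over all tested genes moved from 0.0082 to −0.17 on the log2 scale, and the calls moved from 2516 higher and 2177 lower to 1426 higher and 3872 lower, or 10% and 27.2% of tested genes. On that scale Myh6 was at −0.73 ± 0.21 (SE, edgeR adjusted p = 0.0187) and Myh7 at 0.0060 ± 0.20 (SE, edgeR adjusted p = 0.985). Relative to the median gene of each fit, Myh7 was above it and Myh6 below it with TMM and with library totals.

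Long gene models were lower in the hypoxia libraries as a class, and both heavy chain models are long. Averaged over counts, the gene-model length was between 2596 and 2628 bp in normoxia and 2220, 2261 and 2268 bp in hypoxia libraries 4, 2 and 1, with hypoxia library 3 between the groups at 2375 bp. Among 141 other genes of at least 100 CPM and 4822 to 7535 bp, a window around the 6028 bp of Myh6, the median log2 fold change was −0.22. Of the 141, 56 were called lower and 8 higher, beside 15.3% lower and 17.7% higher over all tested genes of that fit. A lower log2 fold change than that of Myh6 was found in 19 of the 141. Around the 5923 bp of Myh7, from 4738 to 7404 bp, there were 148 such genes with a median of −0.20. Of these, 18 had a higher log2 fold change than Myh7. The 2 windows largely coincide and are not separate support. Once each library's length trend was taken out, 12.1% of genes were called lower and 14.5% higher. Myh6 was then at −0.37 ± 0.17 (SE, edgeR adjusted p = 0.132) and Myh7 at 0.41 ± 0.24 (SE, edgeR adjusted p = 0.234), and neither passed. The part of the length trend in either change was not tested.

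**Figure D3:**
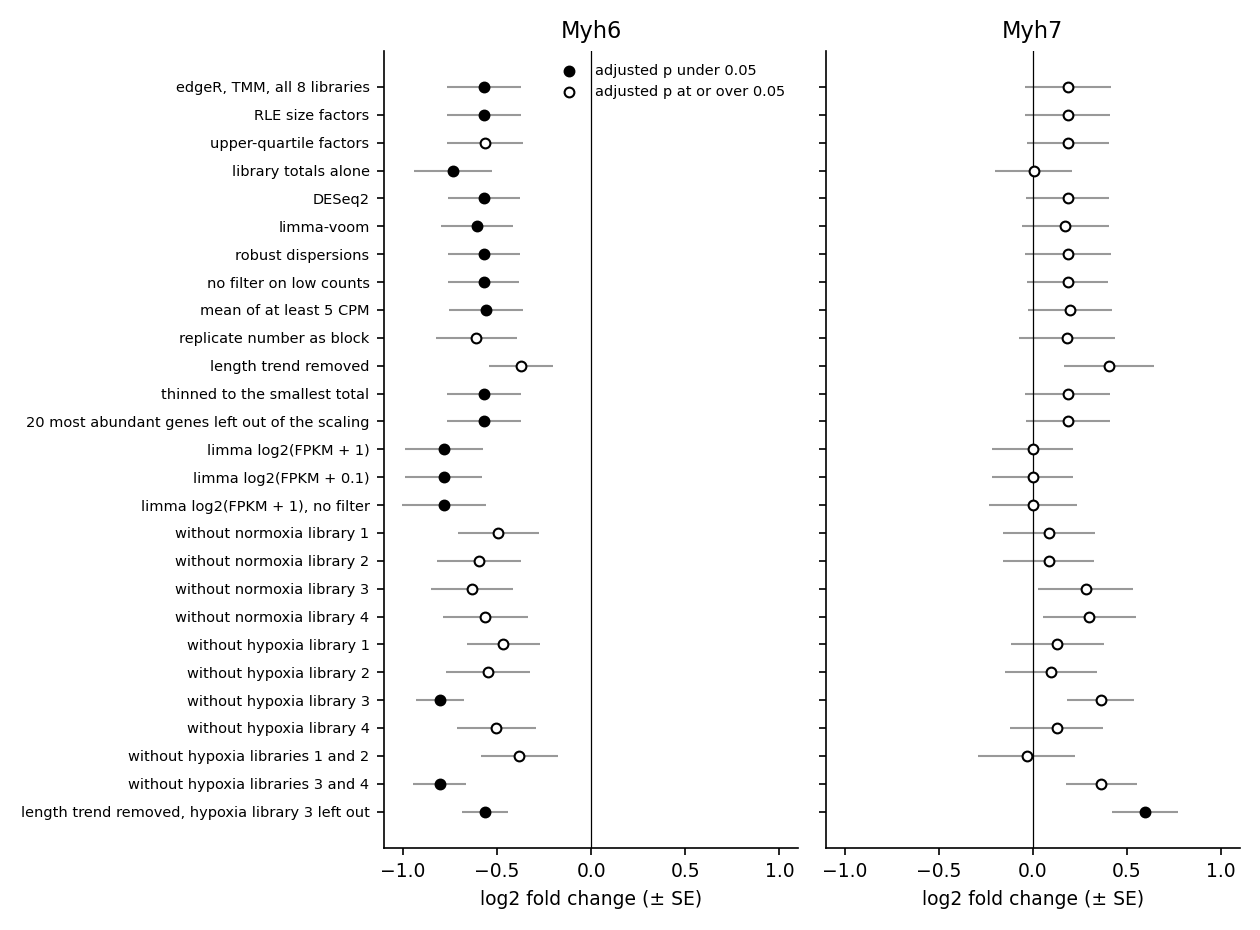
The log2 fold change (± SE) of Myh6 (left) and Myh7 (right) under each way of processing the data and with libraries left out. Filled points have an adjusted p under 0.05. Myh6 stays below 0 throughout, from −0.81 (without hypoxia libraries 3 and 4) to −0.37 (length trend removed). Myh7 runs from −0.032 (without hypoxia libraries 1 and 2) to 0.60. The latter has the length trend removed and hypoxia library 3 left out, a combination chosen after seeing the data.

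The balance between the chains does not depend on library scaling, and the 2 gene models differ little in length. The log2 fold change of Myh7 exceeded that of Myh6 by 0.76 in the TMM fit and by 0.78 with the length trend removed. Measured as the FPKM of Myh7 over the summed FPKM of both genes, the beta share in normoxia libraries 1 to 4 was 26.0%, 29.8%, 41.3% and 38.3%. In hypoxia libraries 1 to 4 it was 55.7%, 51.9%, 27.1% and 53.3%. As deposited, the share was above 50% in hypoxia libraries 1, 2 and 4 and below it in the other 5 hearts. That majority could depend on how reads shared by the 2 genes were counted, which is not stated. Hypoxia library 3 had a lower share than every normoxic heart but normoxia library 1.

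Over all animals the shift of the share did not pass. Hypoxia libraries 1, 2 and 4 lay above every normoxic heart, and hypoxia library 3 lay inside the normoxic range. The means were 33.9 ± 7.16% and 47.0 ± 13.3% for normoxia and hypoxia (SD, n = 4 each), a difference of 13.1 percentage points with a two-sided exact permutation p of 0.143 (adjusted over 2 measures, 0.143). Without hypoxia library 3 the difference was 19.7 points. The groups then could not overlap, as that library alone of the hypoxic hearts lay inside the normoxic range. The exact permutation p was 0.0571, the smallest that 3 against 4 libraries can give. Without any 1 of the other libraries the difference was 10.2 to 15.6 points, with an exact permutation p of 0.171 to 0.286. Without hypoxia libraries 1 and 2 the difference fell to 6.32 points, with an exact permutation p of 0.533. On the scale of log2(Myh7/Myh6) the group means were −0.98 ± 0.47 and −0.20 ± 0.82 (SD, n = 4 each), an exact permutation p of 0.171.

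Counting error was small beside these differences. As a share of the read counts of both genes, Myh7 held 25.7% in normoxia library 1, with a 95% Wilson interval of 25.6% to 25.8%, and 26.8% in hypoxia library 3, with an interval of 26.6% to 26.9%. The interval was of like width in the other libraries, and it covers counting error only.

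Reads that match both genes bear on the level of the share. Parts of the 2 coding sequences are near-identical, and how such reads were counted is not stated in the labels. If a constant part of Myh6 reads had been counted as Myh7, that part could not exceed 25.7%, because a larger one would leave normoxia library 1 with fewer than 0 reads of its own for Myh7. Moving that largest amount back gave a beta share of counts between 0% and 20.5% in normoxia. The same step gave 39.8%, 34.6%, 1.46% and 36.5% in hypoxia libraries 1 to 4, so that no heart was then above 50%. The difference became 17.6 percentage points. By construction this step keeps the order of the 8 libraries and the exact permutation p of 0.143, so it does not test either. A spill that differs between libraries, or from Myh7 to Myh6, was not tested. Reads of LOC120096985 that overlap Myh7 could likewise not be told apart without a stated strand setting.

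**Figure D4:**
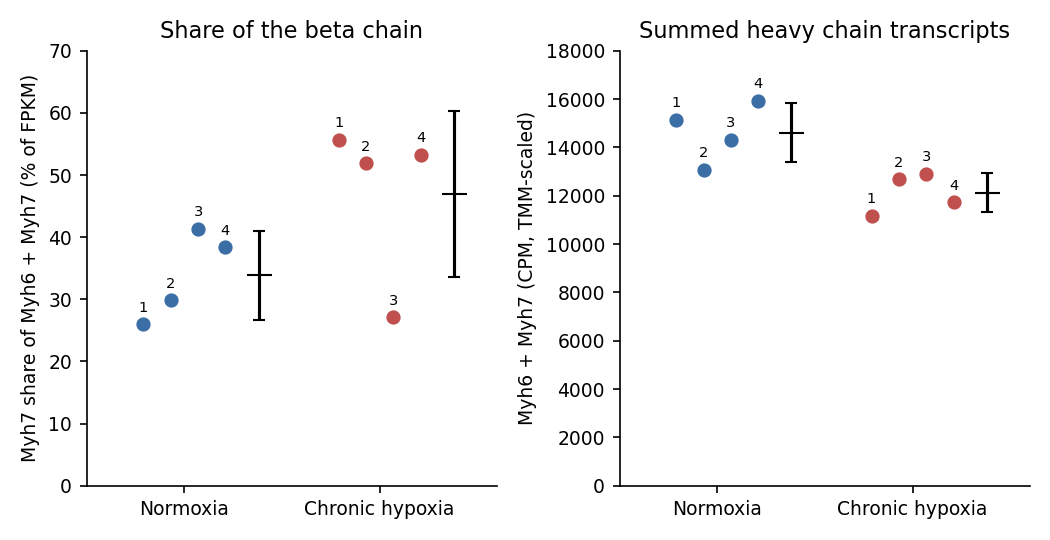
Left, the Myh7 share of the FPKM of both genes in percent by library; right, the sum of both genes in TMM-scaled CPM, with group means and SD as black bars (n = 4 each). Hypoxia library 3 has a share of 27.1% against 51.9% to 55.7% in the other hypoxic hearts, while its sum of 12901 CPM lies below all normoxic sums.

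The summed heavy chain level separated the groups where the share did not. Normoxia libraries 1 to 4 had 15137, 13083, 14308 and 15934 CPM of Myh6 and Myh7 together. Hypoxia libraries 1 to 4 had 11173, 12672, 12901 and 11740 CPM. Every hypoxic heart, library 3 included, lay below every normoxic heart, although normoxia library 2 and hypoxia library 3 were close. For comparison, 17.1% of tested genes had hypoxia values that all lay below the normoxia values. The means were 14616 ± 1218 and 12122 ± 807 CPM (SD, n = 4 each), a difference of −2494 CPM. The exact permutation p was 0.0286, the smallest this design can give, and its adjusted value over 2 measures was 0.0571, which does not pass. At that smallest p, the sum could pass after adjustment only if the share passed as well. With the length trend removed, an alternative chosen after seeing the data, the means were 13570 ± 1217 and 12999 ± 402 CPM (SD, n = 4 each, exact permutation p = 0.4) and the groups overlapped.

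**Figure D5:**
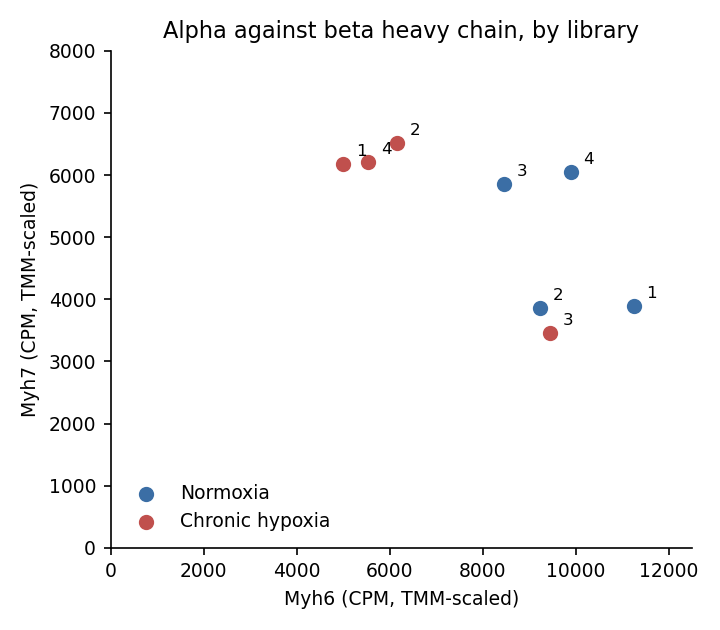
TMM-scaled CPM of Myh7 against Myh6, 1 point per library, numbered as in the labels. Hypoxia libraries 1, 2 and 4 form a group with Myh6 between 5002 and 6155 CPM, and hypoxia library 3 (9448 CPM of Myh6, 3453 of Myh7) lies beside normoxia library 2 (9228 and 3855).

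Plotted against each other, the genes placed hypoxia library 3 beside normoxia library 2 and set the other 3 hypoxic hearts apart. The normoxic hearts lay in 2 pairs by Myh7, libraries 1 and 2 at 3887 and 3855 CPM and libraries 3 and 4 at 5853 and 6042 CPM. Between the pairs Myh6 overlapped, with 11249 and 9228 CPM in the former and 8455 and 9892 CPM in the latter. Both genes varied more between rats than most of the 1115 genes of at least 100 CPM, a set not matched to their abundance. In normoxia the SD of log2 CPM was 0.36 for Myh7 and 0.17 for Myh6, against a median of 0.09 over those genes. This put Myh7 at percentile 99.3 and Myh6 at percentile 91.8 of those genes. In hypoxia the SDs were 0.43 and 0.40 against a median of 0.19, at percentiles 89.9 and 87.5. The normoxic hearts alone spanned 3855 to 6042 CPM of Myh7. Hypoxia libraries 1, 2 and 4 lay above that span at 6171, 6517 and 6204 CPM, and hypoxia library 3 lay below it at 3453 CPM.

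As both chains are among the most abundant genes, the genes with the pattern most like each chain were of far lower abundance. They were ranked by Pearson's r of log2 CPM over the 8 libraries among 7881 genes of at least 10 CPM, as a description, since a high r is easily found among so many genes. For Myh6 these were ENSRNOG00000007018 (r = 0.979) and ENSRNOG00000015440 (r = 0.964). In the first, the normoxia libraries lay at 14.6 to 17.3 CPM, hypoxia library 3 at 15.0 CPM and the other hypoxia libraries at 10.4 to 12.3 CPM. For Myh7 they were ENSRNOG00000019407 (r = 0.964) and ENSRNOG00000022014 (r = 0.939), and with library totals alone these fell to r = 0.619 and r = 0.818. In ENSRNOG00000022014, hypoxia library 3 was lowest at 28.2 CPM and the other hypoxia libraries lay at 33.8 CPM or above. No symbol is paired with these IDs in the files.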

How the data were processed

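RNA from 8 rat hearts was extracted with Trizol and sequenced from NEBNext Ultra RNA libraries (per the labels' protocols). The authors deposited raw read counts per Ensembl gene ID and FPKM values, 1 table of each for every library. The submitters' processing notes name build rn6, bcl2fastq, HTSeq 0.6.0, HISAT2 2.1.0 and Bowtie2 2.2.3; annotation, strand setting and the handling of shared reads are not stated there. Dividing counts by FPKM and library total gave 1 whole gene-model length for each gene in every value above 0, with a largest distance of 0.00469 bp from the whole number.

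No ID is paired with a symbol in the files, and the RefSeq table (GRCr8) matched 0 of 21549 IDs. The symbols Myh6 and Myh7 come from the gene list of this work, no rn6 position is given, and 7 lists of sarcomere and regulatory genes and the cell type markers were not tested. Members and lists were chosen with earlier results of these data known. The rule for named genes took both members, genes of those lists, and the 2 genes most like each member by Pearson's r. The labels name 4 rats per group, so each library was taken as 1 rat.

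Counts were fitted with edgeR 4.0.16 in R 4.3.3 (minimum count of 10 in filterByExpr, TMM, quasi-likelihood test, group only, Benjamini-Hochberg over 14214 genes), in a script tested on simulated data. Share and sum were tested by exact permutation over 70 assignments, two-sided, with scipy 1.17.1. Alternatives were other scalings and filters, DESeq2 1.42.0, limma 3.58.1 (voom, log2(FPKM + 1), log2(FPKM + 0.1)), robust dispersions, thinned counts, a replicate block, libraries left out, the 20 most abundant genes left out of the scaling, and removal of a lowess length trend (span 0.3).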

Additional observations from a re-analysis of the deposited data

Results flagged for a closer look

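Hypoxia library 3 stood apart from the other 3 hypoxic hearts in 2 of the measures. Its Myh7 level was 3453 CPM, and the gap to the nearest other hypoxia library took up 0.887 of the range of the group. Its Myh7 share of both heavy chains was 27.1%, with a gap of 0.867 of the range. Both ratios exceed Dixon's 95% critical value for 4 samples, which chance passes in about 5% of groups, and 8 groups were looked at. The measures share the same Myh7 counts and are not separate observations.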

How the results depend on the processing

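Myh6 kept its direction in all 26 alternatives, with log2 fold changes from −0.81 to −0.37, and its call in 15 of them. The call was lost with upper-quartile scaling (−0.56, adjusted p = 0.0536), with the length trend removed (−0.37, adjusted p = 0.132), and without hypoxia libraries 1 and 2 (−0.38, adjusted p = 0.168). It was also lost with the replicate number as a block (replicate block, −0.61, adjusted p = 0.0755). Leaving out 1 library gave −0.80 to −0.47, and the call held in 1 of 8 cases, that of hypoxia library 3. Myh7 was not called in 25 of 26 alternatives. It passed, at 0.60 (adjusted p = 0.0357), with the length trend removed and hypoxia library 3 left out, a combination chosen after seeing the data, and it turned to −0.032 (adjusted p = 0.933) without hypoxia libraries 1 and 2. Leaving out 1 library gave 0.09 to 0.36. With the block Myh7 was at 0.18, and 3841 genes were called in all in place of 4693, but libraries of the same number did not deviate together, with correlations from −0.0847 to 0.0187. The adjusted p-values here are from edgeR. The number of genes called stayed within 1.5 times of 4693, from 3315 to 5982. The share kept its direction in all 13 alternatives and the sum in all 12, and neither passed in any. The share of counts, the spill step and the log2 ratio keep the order of the libraries by construction, so they are not separate support. Leaving out 1 library gave 10.2 to 19.7 percentage points and −3005 to −2054 CPM. No such design can give an exact permutation p below 0.0571, or below 0.133 with 2 hypoxia libraries left out, so none of these could pass. The difference of the sum moved from −2494 to −572 CPM with the length trend removed. Alternatives for the gene lists were not run, as no symbols could be matched. Depth limits little here, as counting error is small for genes this abundant.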
